A study of Mus musculus with 6 samples.

Results

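C1q/TNF-related proteins are secreted relatives of adiponectin, and their expression was followed here in FAPs, the fibro-adipogenic progenitors that form the mesenchymal stroma of skeletal muscle. The genes were taken by symbol: C1qtnf1, C1qtnf2, C1qtnf3, C1qtnf5, C1qtnf6 and C1qtnf7. Of these 6 genes, 5 had a row among the 16671 genes of the table, and C1qtnf5 was not analysed here. In RefSeq C1qtnf5 (chromosome 9, 44101770 to 44109187, GRCm38) spans the same coordinates as Mfrp, with which it shares exons on the same strand.

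The cells were sorted by flow cytometry from hindlimb muscle of wild-type mice 4 to 5 months of age and received either vehicle (3 libraries, called control) or C1q at 100 µg/ml (3 libraries). Both groups share the same genotype and tissue, and the labels give neither the length of exposure nor the number of animals behind a library. The replicates are not stated to be separate animals or cultures, so each p-value reflects the spread among these libraries alone, and that spread may be technical. The question addressed is how C1q exposure alters the transcripts of FAPs.

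Each C1q/TNF-related protein encoded by the genes taken here has a signal peptide, a collagen-like stalk and a globular head of the same fold as the heads of complement C1q. The stalks wind into trimers, and the family acts outside the cell as hormones or local signals on metabolism, inflammation and matrix. In the founding relative, adiponectin, the head binds the receptors encoded by Adipor1 and Adipor2 and the adhesion protein encoded by Cdh13, while the receptors of most C1q/TNF-related proteins are not settled. The treatment here is C1q itself, so the genes described are structural relatives of the added protein and not its own chains.

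The libraries held 5379209 to 38861152 reads on genes, and control replicate 3 was the shallowest. Values are the authors' normalised read counts, in which 1 read is worth 4.25 units in control replicate 3 and 0.583 to 0.975 in the other libraries. The FAP label was checked against 13 FAP markers, which were all present, with summed normalised counts of 472680 to 599969 in controls and 793199 to 977631 with C1q. Of these markers 8 were higher with C1q, 1, the receptor gene Pdgfrb, was lower (-0.51), and 4 were not called. So 8 of the 13 moved in the direction of the C1q/TNF-related genes that rose. Ly6a, at 13421 to 14607 in controls and 13242 to 17225 with C1q, was among those not called. The FAP receptor gene Pdgfra stood at 15908 to 24176 in controls and 31450 to 34035 with C1q. The 11 markers of muscle-lineage cells were also present, with a summed normalised count of 62314, 36361 and 17808 in the controls 1, 2 and 3 and 11704 to 17195 with C1q. Pax7, which marks resting muscle stem cells, was at 7.58 or less in every library. Of the 11 markers 7 were called lower with C1q and 0 higher. Among the 7, Myod1 was at 451 to 1386 in controls and 236 to 271 with C1q, and Tnnt3 at 1998 to 6389 and 917 to 1334. The RNA extraction text of the labels speaks of muscle stem cells, while the cell type label says FAPs. Over all genes 6389 were called different (38.3%), 3277 of them higher with C1q (19.7%) and 3112 lower (18.7%), by limma-trend with a Benjamini-Hochberg adjusted p below 0.05 across all genes.

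Among the C1q/TNF-related genes, C1qtnf3, C1qtnf1 and C1qtnf7 rose with C1q and C1qtnf6 fell, and C1qtnf2 did not pass the test. The same 4 genes were called, in the same directions, by edgeR, DESeq2 and limma-voom on recovered reads, which called 48.6%, 43.1% and 51.5% of the genes they tested, and by limma-trend with the replicate number as a block, which called 41.0%. The ranges of the control and C1q libraries did not overlap for any of the 5 genes, 4 of them higher and 1 lower, while 52.1% of all genes had ranges that did not overlap (26.8% higher and 25.4% lower). The median log2 fold change of the 5 genes was 0.45, beside 0.03 over all genes. In bulk RNA, a change in the share of cells that express a gene and a change in RNA per cell cannot be told apart.

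Sequence around a transcript start of C1qtnf3 and of C1qtnf6 is shown because C1qtnf3 had the largest rise and C1qtnf6 was the gene that fell, and both lie on the same chromosome. The windows of 300 bases are from RefSeq (GRCm38.p6), printed 5′ to 3′ on the gene's strand, and each was set around 1 transcript start. That start is not the outermost one: the gene spans given below begin further upstream, so that most of the C1qtnf3 window and all of the C1qtnf6 window lie inside them. Which start the cells used was not measured. Capitals mark matches on either strand to any of 5 motifs. The letters TATAAA stand for the TATA box. The letters CTTTGAT stand for a TCF/LEF site. The letters TGANTCA stand for an AP-1 site, in which N is any base. The letters GGGCGG stand for a GC box, and the last motif is CCAAT. In these 2 windows no matches overlap.
C1qtnf3, chr15:10952082-10952381, plus strand: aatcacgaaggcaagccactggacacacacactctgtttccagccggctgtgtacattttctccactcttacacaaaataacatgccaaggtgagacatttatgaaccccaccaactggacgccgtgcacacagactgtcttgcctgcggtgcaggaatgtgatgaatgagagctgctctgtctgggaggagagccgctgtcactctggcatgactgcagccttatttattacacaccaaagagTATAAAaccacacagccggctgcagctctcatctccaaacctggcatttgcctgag
C1qtnf6, chr15:78529602-78529901, minus strand: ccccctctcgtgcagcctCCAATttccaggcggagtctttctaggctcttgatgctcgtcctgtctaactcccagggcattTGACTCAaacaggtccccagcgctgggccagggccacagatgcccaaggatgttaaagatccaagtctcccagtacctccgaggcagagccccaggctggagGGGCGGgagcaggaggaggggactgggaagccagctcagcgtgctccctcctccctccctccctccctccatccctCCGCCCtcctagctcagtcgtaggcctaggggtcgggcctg

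The C1qtnf3 window had 50.7% G and C and 1 TATA match, at position 245 of the window. This match begins at -6 from the transcript start around which the window was set. Of 32851 RefSeq windows of this length 13.6% hold that motif. The C1qtnf6 window had 63.7% G and C, with no TATA match, 2 GC boxes (a motif in 35.7% of windows), 1 AP-1 match (7.81%) and 1 CCAAT (37.4%). Neither window held the TCF/LEF letters, which 3.73% of windows hold. These matches are descriptions of sequence, and binding was not measured. The median window had 52.7% G and C. Windows were found for 5 of the 6 genes, C1qtnf1 being the one without an entry.

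C1qtnf3 encodes a protein known as cartonectin, first described in growing cartilage and also made by fat tissue. It is Entrez gene 81799 on chromosome 15, 10952119 to 10980162 on the plus strand, and its longest annotated transcript has 6 exons and 2338 bases. Its normalised read count was 832, 371 and 289 in control libraries 1 to 3, against 1787, 1578 and 1719 in the C1q libraries 1 to 3. The C1q libraries were all high and close together, whereas control replicate 1 stood above the other controls and still below every C1q library. The group levels were 497 ± 292 and 1695 ± 107 (SD, n = 3 each), a log2 fold change of 1.92 ± 0.34 (SE) or 3.78-fold, with a limma-trend adjusted p of 0.00386. It was the only one of the 5 genes that rose at least 2-fold, which 5.19% of all genes did while also being called. The reads behind these values numbered 1427, 480 and 68 in the controls and 1619 to 2536 with C1q.

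The variable control level of C1qtnf3 ran in the same order as the summed count of the muscle-lineage markers. That sum was also highest in control replicate 1 and lowest in control replicate 3. Myf5 alone among these markers ran in the reverse order over the controls. Library depth had the same order as C1qtnf3, with 38861152, 29325341 and 5379209 reads on genes in controls 1, 2 and 3. These orders over 3 libraries were not tested. Between the groups the directions were opposite, since C1qtnf3 was higher with C1q and 7 of the 11 muscle-lineage markers were lower and 0 higher. Without control replicate 1 the log2 fold change of C1qtnf3 was 2.37 (limma-trend adjusted p 5.32e-04), and without the shallow control replicate 3 it was 1.61 (adjusted p 0.00543). Of 9 tendon and cartilage markers, 4 were higher with C1q and 1 was lower, and their summed count was 11305 to 24193 in controls and 44069 to 69758 with C1q. Over the controls this sum was lowest in replicate 1, where C1qtnf3 was highest. Comp, a matrix gene of tendon and cartilage, was at 6072 to 13825 in controls and 23876 to 36941 with C1q (log2 fold change 1.78, limma-trend adjusted p 0.00358). Tnmd and Fmod, on the same list, rose by 2.61 and 2.19 on the log2 scale (limma-trend adjusted p 0.00139 and 0.00542). The cartilage regulator gene Sox9 was also called higher (0.40). The marker called lower was Scx, at 302 to 413 in controls and 126 to 199 with C1q (-1.21, limma-trend adjusted p 0.00248). Acan and Col2a1, which encode the main proteins of cartilage matrix, stayed at or below 8.50 and 38.6 in every library and were not called. Of 7 mural cell markers 3 were higher with C1q and 0 lower (sums of 2680 to 3099 and 5143 to 6801). Of 5 glial markers 2 were higher and 0 lower, of 8 macrophage markers 0 and 2, and of 8 endothelial markers 0 and 0. Beside these counts from short lists, 19.7% of all genes were called higher and 18.7% lower. Among the macrophage markers Cx3cr1 was called lower, at 11.7 to 21.3 in controls and 1.49 or less with C1q (-3.10, limma-trend adjusted p 0.00340). It had 20 reads or fewer in every library. Lyz2 was called higher with the replicate block (limma-trend adjusted p 0.00560). The lower call of Cd14 (-0.70, adjusted p 0.0436) was lost in 7 of the 17 alternatives, with adjusted p of 0.0744 to 0.220 there. The endothelial gene Emcn (-1.59) was called lower with the block (adjusted p 0.0253) and without control replicate 1 (0.0491), and the mural gene Myh11 (0.93) was called higher with the block (0.0300), by edgeR (0.0490), DESeq2 (0.0115) and limma-voom (0.0109), and without control replicate 3 (0.0112). The lowest gene mean of the data is 1.00, so that no measured marker could be at 0 in every library. Of 9 listed macrophage markers, 8 were measured. The part of other cell types in the results for the C1q/TNF-related genes was not tested.

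**Figure D1:**
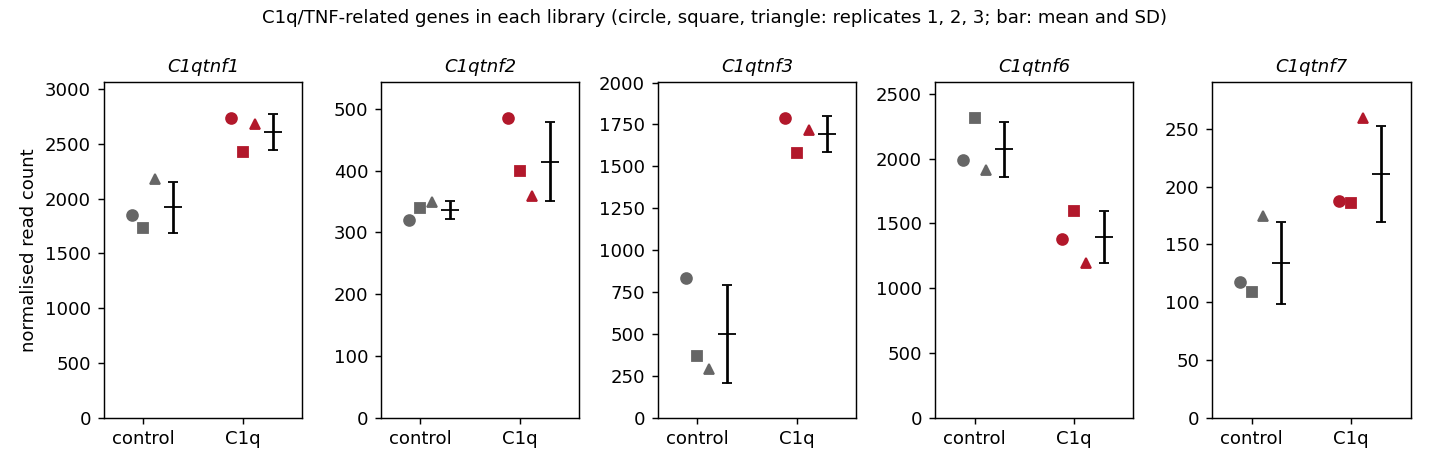
Normalised read count (vertical axes, from 0) of the 5 measured C1q/TNF-related genes in each of 3 control and 3 C1q libraries, with the mean and SD beside the points. C1qtnf6 is lower in all C1q libraries, the other genes are higher, and C1qtnf3 rises from 289 to 832 in controls to 1578 to 1787 with C1q.

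C1qtnf1 encodes CTRP1, a circulating protein made by stromal and vascular cells of fat and linked to glucose handling and to aldosterone production. It is Entrez gene 56745 on chromosome 11, 118428457 to 118451782 on the plus strand. Its normalised read count was 1847, 1733 and 2181 in control libraries 1 to 3, against 2734, 2426 and 2678 in the C1q libraries 1 to 3. Control replicate 3 was the highest control and still lay below the lowest C1q library. The means were 1920.3 ± 233 and 2613 ± 164 (SD, n = 3), a log2 fold change of 0.45 ± 0.10 (SE) with a limma-trend adjusted p of 0.00928. An annotated gene on the opposite strand, Gm11747, overlaps exons of C1qtnf1, but it stood at 3.50 or less in every library.

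C1qtnf7 encodes a less studied member that has been tied to glucose metabolism. It is Entrez gene 109323 on chromosome 5, 43515425 to 43619126 on the plus strand, and its longest annotated transcript has 3879 bases. Its normalised read count was 118, 109 and 174 in control libraries 1 to 3, against 187, 186 and 259 in the C1q libraries 1 to 3. Replicate 3 was the highest library of each group, and control replicate 3, with 41 reads, came close to the lowest C1q library. The means were 134 ± 35.5 and 211 ± 41.8 (SD, n = 3), a log2 fold change of 0.67 ± 0.22 (SE) with a limma-trend adjusted p of 0.0451. This call was close to the threshold. With the dependence of fold change on transcript length taken out (the length trend removed), a setting in which 33.4% of genes were called, it was 0.57 with an adjusted p of 0.0900, and after thinning all libraries to the depth of the shallowest it was 0.61 with an adjusted p of 0.277. Leaving out the controls 1 and 2 in turn gave limma-trend adjusted p of 0.118 and 0.123, and leaving out the C1q libraries 1, 2 and 3 in turn gave 0.0772, 0.0748 and 0.153, while leaving out control replicate 3 gave 0.00738.

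C1qtnf2 encodes CTRP2, a close relative of C1qtnf7 that has been linked to fat oxidation and lipid turnover. It is Entrez gene 69183 on chromosome 11, 43474306 to 43491525 on the plus strand, with a longest annotated transcript of 1211 bases, the shortest of the 5. Its normalised read count was 319, 339.7 and 349 in control libraries 1 to 3, against 485, 399.6 and 359 in the C1q libraries 1 to 3. The controls lay within a narrow band, and the C1q libraries ranged from just above it to well above it. The means were 336 ± 15.0 and 415 ± 64.0 (SD, n = 3), a log2 fold change of 0.29 with a 95% interval of 0.0062 to 0.58, and the limma-trend adjusted p of 0.0988 missed the threshold. With the trend on transcript length removed C1qtnf2 was called higher at 0.70 (limma-trend adjusted p 0.00649), and with the replicate block added, where 36.6% of genes were called, its adjusted p was 0.00904.

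C1qtnf6, which fell, encodes CTRP6, reported to restrain the alternative complement pathway by competing with factor B. It is Entrez gene 72709 on chromosome 15, 78523346 to 78532170 on the minus strand. Its normalised read count was 1989, 2312 and 1913 in control libraries 1 to 3, against 1382, 1597 and 1196 in the C1q libraries 1 to 3. Every C1q library was lower than every control, and replicate 2 was the highest in both groups. The means were 2071 ± 212 and 1392 ± 201 (SD, n = 3), a log2 fold change of -0.58 ± 0.12 (SE), or 1.49-fold lower, with a limma-trend adjusted p of 0.00746. Exons of an annotated gene on the opposite strand, Gm49490, overlap C1qtnf6, and without a stated strand setting their reads cannot be told apart.

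The genes were then compared with each other as normalised counts per kilobase of the longest annotated transcript, a level that depends on which transcript the cells use. In controls the order was C1qtnf6 at 862 ± 88.1, C1qtnf1 at 758 ± 91.9, C1qtnf2 at 277 ± 12.4, C1qtnf3 at 213 ± 125 and C1qtnf7 at 34.4 ± 9.15 (SD, n = 3). The ranges of C1qtnf6 and C1qtnf1 overlapped there, as did those of C1qtnf2 and C1qtnf3. With C1q the order was C1qtnf1 at 1032 ± 64.8, C1qtnf3 at 725 ± 45.6, C1qtnf6 at 579 ± 83.6, C1qtnf2 at 342 ± 52.9 and C1qtnf7 at 54.4 ± 10.8 (SD, n = 3), with no overlap between neighbours. The closest neighbours were C1qtnf3, with a lowest value of 675, and C1qtnf6, with a highest value of 665. C1qtnf1 and C1qtnf6 were at the 89.9th and 87.3rd percentile of mean level per kilobase among 14933 genes with a length, C1qtnf3 at the 80.4th, C1qtnf2 at the 72.0th and C1qtnf7 at the 32.5th.

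Counted as shares of the family sum, the balance moved mostly between C1qtnf3 and C1qtnf6. Of the summed level per kilobase of the 5 genes, C1qtnf3 held 16.1%, 7.50% and 5.85% in control libraries 1 to 3, against 26.6%, 25.2% and 27.7% in the C1q libraries 1 to 3. C1qtnf6 held 37.5% to 45.5% in controls and 18.8% to 24.9% with C1q. The ratio of C1qtnf3 to C1qtnf6 per kilobase was 0.429, 0.165 and 0.155 in the controls and 1.33, 1.01 and 1.48 with C1q, and it does not depend on the scaling between libraries. C1qtnf1 kept a share of 35.4% ± 4.65 in controls and 37.8% ± 2.02 with C1q (SD, n = 3). Its rise thus ran with that of the family sum, of which it is itself a large part. That sum was 2114 to 2207 in controls and 2655 to 2868 with C1q. These shares were not tested.

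**Figure D2:**
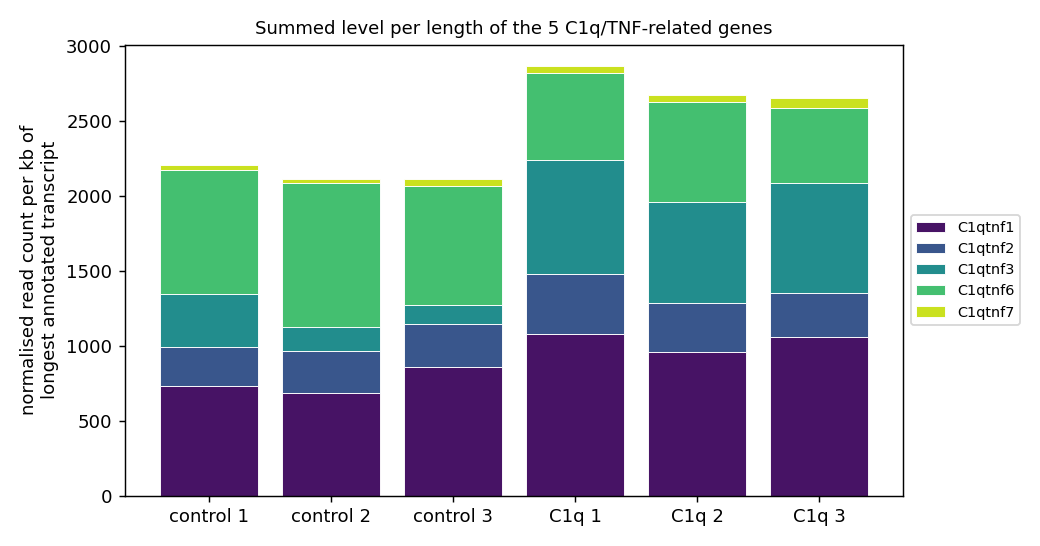
Normalised read count per kilobase of longest annotated transcript (vertical axis, from 0), stacked for the 5 genes in each library. The block of C1qtnf3 grows from 124 to 356 in controls to 675 to 764 with C1q, and that of C1qtnf6 shrinks.

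Other genes with a C1q domain were measured for 19 of 25 listed, of which 3 were higher with C1q and 0 lower, with a median log2 fold change of 0.36. The share higher was 15.8%, beside 19.7% of all genes. At an adjusted p below 0.05, edgeR after its filter and DESeq2 also called 3 higher and 0 lower. The 3 genes were Col8a2, Col8a1 and Caprin2. Col8a2, which encodes a short-chain collagen with a C1q-type head, stood at 621, 1042 and 680.2 in control libraries 1 to 3, against 3753, 5182 and 4687 in the C1q libraries 1 to 3, far apart from the controls (log2 fold change 2.56, limma-trend adjusted p 2.25e-04). Its partner chain gene Col8a1 rose by 1.74 on the log2 scale. Caprin2, which encodes an RNA-binding protein that carries a C1q domain, rose by 0.69 (limma-trend adjusted p 0.00613), but the log2 fold change was 0.34 with an adjusted p of 0.119 once the length trend was removed and 0.46 with an adjusted p of 0.118 after thinning. Emilin1, an elastic fibre glycoprotein gene, was at 9368 to 12099 in controls and 12378 to 12819 with C1q and was not called (adjusted p 0.0889), but it was without control replicate 3 (adjusted p 0.0159). The paralogues C1qtnf4 and C1qtnf12, outside the 6 genes described here, stood at 25.5 to 27.8 and 485 to 761 in controls and at 33.1 to 44.4 and 697 to 779 with C1q. Neither was called, while both were called higher with the length trend removed, and C1qtnf12 also without control replicate 2.

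The chains of C1q itself were close to undetected. C1qa was at 0 in control replicates 1 and 3 and C1q replicates 1 and 3, and at 6.18 and 13.6 in control and C1q replicate 2. C1qb reached 8.77 and C1qc 23.4 at most, both in C1q replicate 2. Adipoq, which encodes adiponectin and is made by fat cells, was at 1329, 2357 and 539.9 in control libraries 1 to 3, against 824, 2643 and 1765 in the C1q libraries 1 to 3, and it was not called (limma-trend adjusted p 0.625). Replicate 2 was highest for Adipoq in both groups. The summed count of 7 fat cell markers was also highest in replicate 2 of both groups, at 5148 to 15085 in controls and 4779 to 12918 with C1q, and limma-trend called 0 of the 7. Of the C1q/TNF-related genes C1qtnf6 alone was highest in replicate 2 of both groups.

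**Figure D3:**
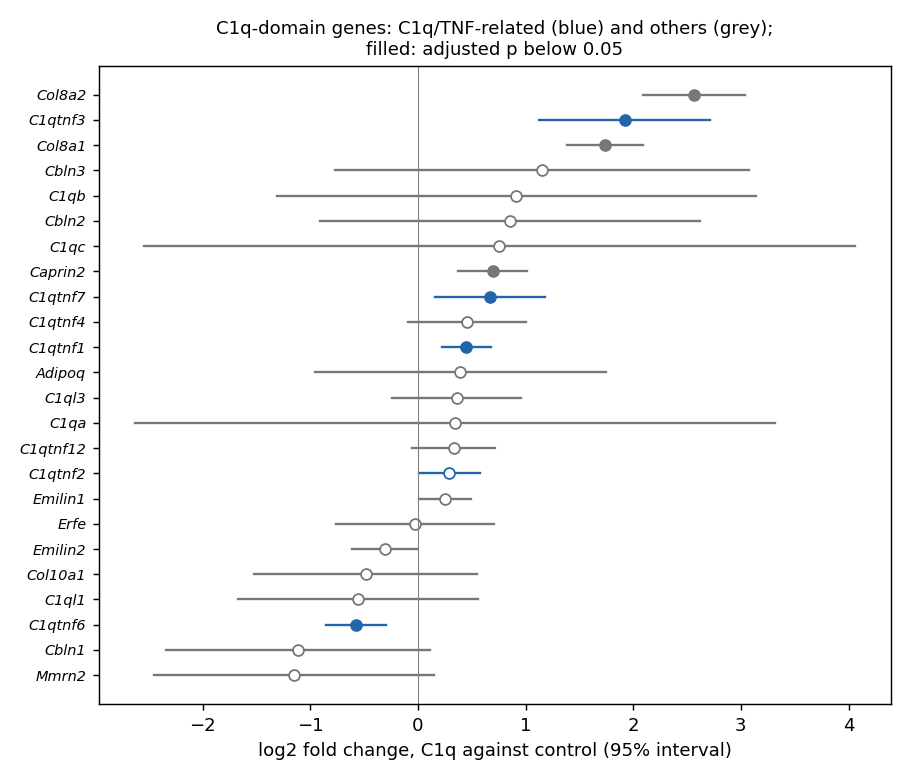
Log2 fold change, C1q against control, with its 95% interval (horizontal axis) for the 5 C1q/TNF-related genes and 19 other genes with a C1q domain. Filled points have an adjusted p below 0.05: C1qtnf3 lies between Col8a2 and Col8a1, C1qtnf6 is the one filled point below 0, and the chains of C1q have wide intervals.

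Receptors and signalling partners of adiponectin-type proteins were all measured (18 of 18), and 5 were higher with C1q and 2 lower, with a median log2 fold change of 0.05. The share called was 38.9%, close to the 38.3% of all genes. Appl1 and Appl2, whose products bind the adiponectin receptors on the inner face of the membrane, rose by 0.57 and 0.46 (limma-trend adjusted p 6.50e-04 and 0.00360). Appl1 stood at only 0.11 (adjusted p 0.224) with the length trend removed. Lysmd3, which encodes a membrane protein reported to bind the C1qtnf3 product, was at 200.4, 204 and 238 in control libraries 1 to 3, against 342, 455 and 359 in the C1q libraries 1 to 3. Its groups were well separated, and it rose by 0.84 (limma-trend adjusted p 0.00273). Prkag1, a subunit of the energy sensor AMPK, fell by 0.45 on the log2 scale (limma-trend adjusted p 0.00468), but changed by -0.20 with an adjusted p of 0.170 with the length trend removed.

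The remaining called genes of that list and its receptors are named here after their values were seen. The AMPK subunit genes Prkab2 and Prkag2 were called higher (0.56 and 0.73), and Stk11, which encodes the AMPK-activating kinase LKB1, was called lower (-0.24). Each of these calls was lost under some alternatives: Prkab2 with the length trend removed (limma-trend adjusted p 0.0780) or after thinning (0.0959), Prkag2 without C1q replicate 3 (0.0533), and Stk11 in 4 of the 6 fits that left out 1 library (0.0567 to 0.103), those without control replicate 1, control replicate 2, C1q replicate 2 and C1q replicate 3. Adipor1 and Adipor2 were at 2387 to 2589 and 2401 to 2779 in controls and at 2574 to 2656 and 2579 to 2848 with C1q. Their ranges overlapped, and the 95% intervals of their log2 fold changes were -0.07 to 0.21 and -0.13 to 0.23. Cdh13 changed by -0.53 and was not called (limma-trend adjusted p 0.0932), but it was called lower by DESeq2 (adjusted p 0.0247), by limma-voom (0.0351), with the length trend removed (0.0379) and without control replicate 3 (0.0354).

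Enzymes that modify collagen-like stalks and help trimers assemble were measured for 14 of 16 listed symbols, which include older names of the same genes. Of these, 2 were higher and 2 lower, with a median log2 fold change of -0.09, and the share called was 28.6%, beside 38.3% of all genes. P4ha3, a catalytic subunit of the prolyl hydroxylase that stabilises collagen helices, was at 1337, 940.5 and 1309 in control libraries 1 to 3, against 3102, 2617 and 2705 in the C1q libraries 1 to 3, with a wide gap between the groups (log2 fold change 1.25, limma-trend adjusted p 6.41e-04). The disulphide oxidase gene Ero1b rose by 0.73 (limma-trend adjusted p 0.00942), a call lost after thinning. P4hb, the partner subunit of the hydroxylase, and the lysyl hydroxylase gene Plod1 changed by -0.34 and -0.26 (limma-trend adjusted p 0.0396 and 0.0269). Both calls were fragile, since 5 of the 6 fits that left out 1 library lost each of them, with limma-trend adjusted p of 0.0666 to 0.137 for P4hb (kept without control replicate 2) and 0.0523 to 0.0972 for Plod1 (kept without control replicate 1).

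The alternative complement pathway, on which the C1qtnf6 product is reported to act, was measured for 9 of 10 genes, of which 3 rose and 0 fell, and the median log2 fold change was 0.88. The share higher was 33.3%, beside 19.7% of all genes. C3, the central component, and Cfb, which encodes factor B, rose by 2.40 and 1.01 (limma-trend adjusted p 5.85e-04 and 0.00228), while C1qtnf6 fell. Cd55, which encodes a membrane inhibitor of the pathway, rose by 0.88 (limma-trend adjusted p 0.0139, and 0.0548 without C1q replicate 2). Cfi, the gene of the protease that degrades C3b, was at 16.9, 23.2 and 68.0 in control libraries 1 to 3, against 73.3, 62.4 and 166.6 in the C1q libraries 1 to 3. Its groups overlapped through control replicate 3, and it was not called (limma-trend adjusted p 0.0606), whereas it was called with the replicate number as a block (adjusted p 0.00313), without control replicate 3 (0.00704), by edgeR (0.0317), by DESeq2 (0.00525) and by limma-voom (0.0182). Each of these 3 count tests called 4 genes of the list higher. With the block 5 genes of the list were called higher, Cfd and Cfi being the additions.

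The nearest measured neighbours of each gene were examined because reads that run past a gene's end would be shared. Amacr, whose span begins 1594 bases beyond the end of C1qtnf3, was at 278 to 298 in controls and 273 to 318 with C1q and was not called (log2 fold change -0.02). Beside C1qtnf1, Cant1 changed by 0.05, and beside C1qtnf2, Slu7 changed by -0.04, with neither called. Il2rb and Sstr3, on either side of C1qtnf6, did not exceed 18.3 in any library and were not called. Both neighbours of C1qtnf7 were called higher, Cc2d2a at 1.07, 43248 bases away, and Cpeb2 at 0.95, 225701 bases away, although Cpeb2 was not called with the length trend removed or after thinning (limma-trend adjusted p 0.0541 and 0.0503).

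The genes whose levels followed each called member most closely were sought among 10752 others with a mean of at least 100, by Pearson's r of log2(value + 1) over the 6 libraries. For C1qtnf1 these were Aktip (r 0.998) and Cped1 (r 0.997), for C1qtnf3 Myo10 (r 0.995) and Ring1 (r 0.993), for C1qtnf6 Map3k11 (r 0.999) and Med30 (r 0.997), and for C1qtnf7 Pfkfb3 (r 0.996) and Bnc2 (r 0.988). Such values were common, since 572 to 1430 genes had an r above 0.9 with each of the 4 genes, and all libraries of a group share their treatment. For Myo10, called higher at 0.51, the change was 0.03 once the length trend was removed.

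**Figure D4:**
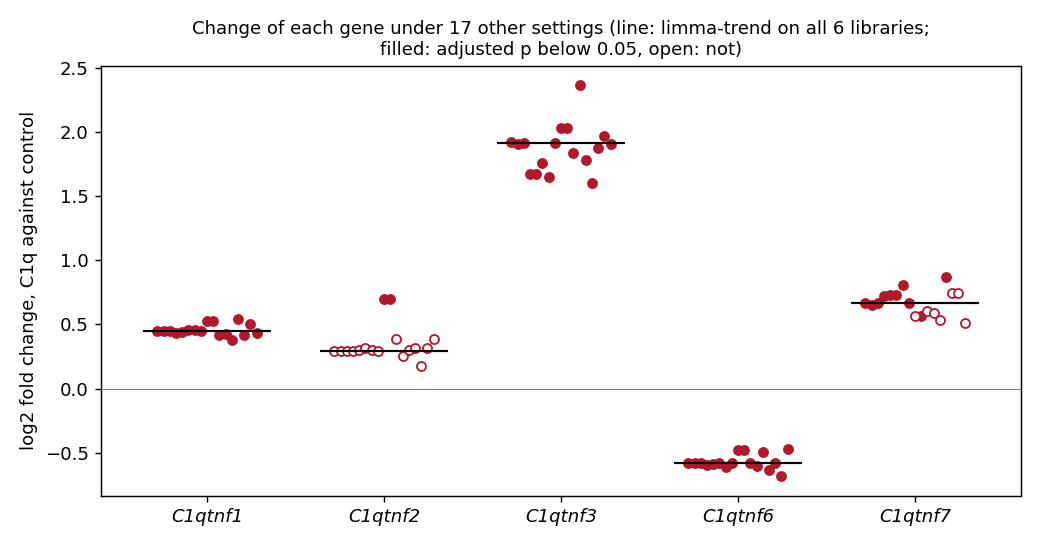
Log2 fold change, C1q against control (vertical axis), of each C1q/TNF-related gene under 17 other settings of the processing (points) and with limma-trend on all 6 libraries (line). Filled points have an adjusted p below 0.05: C1qtnf1, C1qtnf3 and C1qtnf6 are filled throughout, C1qtnf2 only with the length trend removed, and C1qtnf7 in 10 of 17.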

How the data were processed

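Per the labels' protocols, cDNA was prepared with a low-input SMART-Seq kit from 10 ng RNA. The submitters' processing notes list Trimmomatic, HISAT2, featureCounts, DESeq2 and mm10, without versions, annotation or strand setting. The file headers speak of counts, but the deposited values are a normalised signal: the authors' reads per Entrez gene, scaled by 1 factor for each library. All values (100%) are whole multiples of 1 read within 0.001 of a read, so reads were recovered. The lowest gene mean is 1.00. Replicates of a group differed beyond sampling noise (chi-square per degree of freedom 17.6 to 42.9).

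Symbols and coordinates came from RefSeq GRCm38.p6 (16077 of 16671 IDs matched), and transcript lengths from GENCODE vM21 (89.6% of IDs). Groups came from the sample titles. The test was limma-trend (limma 3.58.1, R 4.3.3) on log2(value + 1) with a minimum gene mean of 1 (0 genes removed); fold changes on this scale understate those of low genes. Alternatives were other pseudocounts and minimum, edgeR 4.0.16, DESeq2 1.42.0 and limma-voom on recovered reads, a block for the replicate number, removal of a loess trend on transcript length (span 0.5), thinning to 5379209 reads and leaving out each library. The test was checked on simulated data. Deviations from the group means correlated at 0.123, 0.175 and 0.132 between same-numbered control and C1q libraries, all above 0.1, so same-numbered libraries may be pairs, although the labels do not state this; the test itself used no block. The members and gene lists were chosen with earlier results of these data known. Named were all members, up to 4 genes of lowest p per list, C1qa, C1qb, C1qc, Adipoq, Pdgfra, Ly6a, Col1a1, the nearest measured neighbours and the 2 most similar genes per called member. Of these, genes that add nothing to a result are left out of the text. Prkab2, Prkag2, Stk11, Prkaa1, Adipor1, Adipor2, Cdh13, C1qtnf4, C1qtnf12, Emilin2, Cbln1, Mmrn2, Cfd, Masp1, Acan, Col2a1, Sox9, Pdgfrb and Pax7 fall outside that rule and were chosen after their values were seen.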

Additional observations from a re-analysis of the deposited data

How the results depend on the processing

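C1qtnf1, C1qtnf3 and C1qtnf6 kept their direction and their call under all 17 alternatives, with log2 fold changes of 0.38 to 0.54, 1.61 to 2.37 and -0.68 to -0.47. C1qtnf7 kept its direction (0.51 to 0.87) and lost its call in 7, and C1qtnf2 (0.17 to 0.70) gained one in 2. With the replicate block the members called were again 3 higher and 1 lower, and 6833 genes were called in all; in the 4 pathway lists the block added calls for Emilin2, Prkaa1, Cfd and Cfi and removed 0. With the length trend removed 2183 genes were higher in place of 3277. The cause of that trend was not tested. Among other C1q-domain genes 1 was lower in place of 0 with the block, with the length trend removed, or both (Emilin2), and with edgeR without a filter (Cbln1); leaving out single libraries gave 0 to 1 (Mmrn2, without control replicate 1). Among receptors and signalling genes 3 in place of 5 were higher with the length trend removed, with or without the block, and leaving out single libraries gave 1 to 3 lower in place of 2. Among stalk-modifying enzymes thinning gave 1 higher and 1 lower in place of 2 and 2, the length trend removed gave 1 lower with or without the block, and leaving out single libraries gave 0 to 3 lower. In the alternative complement pathway 5 in place of 3 were higher with the block, with or without the length trend, and leaving out single libraries gave 0 to 1 lower (Masp1, without control replicate 2). Depth limits C1qtnf7 most, with 41 reads in control replicate 3; thinned to that library's depth its adjusted p was 0.277.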
